A study of Homo sapiens with 9 samples.

Results

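The genes described here encode proteins of the human centromere and kinetochore. Rows of the OVCAR4 gene count table were taken by gene name from a list of 33 such genes, and all 33 were found among the 58735 genes of the table. By the place of their products, 15 genes were assigned to the inner centromere and 18 to the outer kinetochore, and this assignment used no measured value. OVCAR4 is an established cell line of ovarian serous adenocarcinoma. Cells carried a scramble shRNA (scr control, 3 libraries) or either of 2 shRNAs against MPZL3, a predicted cell adhesion molecule (shMPZL3 #1 and shMPZL3 #2, 3 libraries each). All 3 groups received lentiviral shRNA vectors and were then kept in puromycin for 3 days, the control cells are wild type by their labels, and the study states 3 biological replicates per group. The samples are cultures of transduced cells and their RNA was measured in bulk, so fewer dividing cells and less of a transcript per cell cannot be told apart.

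The kinetochore is the protein structure that joins a chromosome to spindle microtubules in mitosis. It stands on chromatin that holds CENPA, the centromeric variant of histone H3, and this chromatin carries the constitutive centromere-associated network (CCAN), which stays at centromeres through the cell cycle. The MIS12, NDC80 and KNL1 complexes assemble on the CCAN when cells enter mitosis, NDC80 and SKA bind the microtubule, and MAD2L1 acts in the spindle checkpoint that delays anaphase until chromosomes are attached. Transcripts of many of these genes are known to be most abundant in G2 and M phase, so their level in a bulk sample of tumor cells depends on how many cells are dividing.

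Promoter windows of 5 of these genes, chosen with the values known, are shown first. The results below turn on a pair of partner genes in each layer (SPC24 with SPC25, CENPT with CENPW) and on MAD2L1. Each window runs from 250 bases before to 50 bases after the RefSeq transcription start on GRCh38.p14 and is written 5′ to 3′ on the strand of the gene. Capitals mark 3 motifs known from promoters of cell cycle genes, searched on both strands, and no capitals overlap between motifs in these windows. They are the cell cycle genes homology region (CHR, TTTGAA or TTCGAA), the CCAAT box (CCAAT, which reads ATTGG where it lies on the other strand) and an E2F motif (GCGGGAA or GCGCGAA).
SPC25, chr2:168890381-168890680 (minus strand): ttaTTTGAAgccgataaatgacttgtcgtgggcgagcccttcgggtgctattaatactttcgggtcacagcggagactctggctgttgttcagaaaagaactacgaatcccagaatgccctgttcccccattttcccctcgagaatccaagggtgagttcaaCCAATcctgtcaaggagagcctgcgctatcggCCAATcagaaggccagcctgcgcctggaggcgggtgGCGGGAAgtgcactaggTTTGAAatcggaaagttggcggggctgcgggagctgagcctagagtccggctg
SPC24, chr19:11155733-11156032 (minus strand): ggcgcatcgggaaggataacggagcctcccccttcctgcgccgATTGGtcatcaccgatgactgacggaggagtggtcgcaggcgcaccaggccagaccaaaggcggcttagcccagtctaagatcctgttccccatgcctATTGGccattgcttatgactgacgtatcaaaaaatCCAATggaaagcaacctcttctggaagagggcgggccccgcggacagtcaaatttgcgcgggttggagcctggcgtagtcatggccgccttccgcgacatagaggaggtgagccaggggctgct
CENPW, chr6:126339865-126340164 (plus strand): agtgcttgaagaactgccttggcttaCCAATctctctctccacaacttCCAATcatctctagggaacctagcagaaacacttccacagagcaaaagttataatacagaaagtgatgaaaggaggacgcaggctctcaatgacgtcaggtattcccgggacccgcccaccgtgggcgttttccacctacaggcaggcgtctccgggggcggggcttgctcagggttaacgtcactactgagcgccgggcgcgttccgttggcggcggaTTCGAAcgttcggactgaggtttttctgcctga
CENPT, chr16:67847644-67847943 (minus strand): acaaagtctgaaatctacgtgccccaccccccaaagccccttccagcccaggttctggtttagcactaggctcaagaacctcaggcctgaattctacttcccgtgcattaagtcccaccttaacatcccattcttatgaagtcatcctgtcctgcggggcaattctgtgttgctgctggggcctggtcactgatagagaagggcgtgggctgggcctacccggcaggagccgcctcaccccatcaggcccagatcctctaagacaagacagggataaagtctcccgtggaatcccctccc
MAD2L1, chr4:120066799-120067098 (minus strand): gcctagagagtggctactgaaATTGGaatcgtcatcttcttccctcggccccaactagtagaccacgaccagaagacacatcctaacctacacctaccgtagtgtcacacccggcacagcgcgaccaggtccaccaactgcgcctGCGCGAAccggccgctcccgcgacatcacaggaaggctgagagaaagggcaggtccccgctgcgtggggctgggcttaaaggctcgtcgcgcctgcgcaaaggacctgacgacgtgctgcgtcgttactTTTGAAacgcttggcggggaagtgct
In the SPC25 window the first base of a CHR match lies at -247 and at -3 from the start, and the E2F match at -20. The SPC24 window holds 3 CCAAT matches, at -207, -109 and -74, and no CHR or E2F match in these letters. CENPW has a CHR match at 18 and MAD2L1 has CHR at 25 and E2F at -105, while the CENPT window has no match to the 3 motifs. Not shown are CENPI, SKA2 and CENPE, whose windows have no CHR match and which fell with both shRNAs (below). NDC80, NUF2, SKA3, CENPF and MAD2L1 also fell with both and have a CHR match. A match is a run of letters and was not tested for binding.

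Total counts ranged from 15040102 to 27835841 per library. Normalized counts of MPZL3, the targeted gene, ranged over 536 to 611 in the scr control libraries, 119 to 143 in those of shMPZL3 #1 and 271 to 380.4 in those of shMPZL3 #2, so both knockdowns were in the direction of the labels. The log2 fold change of MPZL3 was -2.17 ± 0.16 with shMPZL3 #1 (SE, adjusted p = 3.73e-07) and -0.89 ± 0.15 with shMPZL3 #2 (adjusted p = 0.000562), and below, too, the value after a log2 fold change or difference is its SE. Markers of serous and epithelial cells were well expressed (PAX8 3381 to 7202 counts, EPCAM 5905 to 11139, KRT7 28710 to 75675), whereas WT1, also a serous marker, had only 3 to 13 counts. The 6 immune and endothelial markers summed to 6.86 to 8.18 CPM (counts scaled to the library total) in scr control, 6.78 to 8.15 with shMPZL3 #1 and 8.64 to 9.59 with shMPZL3 #2, and CD3E had 0 to 4 counts. Within these lists CD14, with 3 to 12 counts in scr control and 19 to 34 in the knockdown libraries, rose in the grouped comparison (1.60 ± 0.42, adjusted p = 0.0237) and with each shRNA, and MUC16 fell with shMPZL3 #1 (-0.61 ± 0.16, adjusted p = 0.00739). Of the 7 serous and epithelial markers tested, 1 fell and 2 rose with shMPZL3 #1, with a median log2 fold change of 0.25. Of all genes tested, 15.3% fell and 16.8% rose with this shRNA. The part of these markers in the results below was not tested.

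Many transcripts of the centromere and kinetochore fell after MPZL3 knockdown, among them CENPA and CENPI of the inner centromere and NUF2, MAD2L1 and CENPF of the outer kinetochore, and 1 transcript, SPC24, rose with shMPZL3 #2. All 33 genes passed the filter on low counts that left 16928 genes for testing. With the 6 knockdown libraries set against the 3 control libraries (edgeR's quasi-likelihood test, adjusted p under 0.05), 15 of 33 fell and 0 rose, against 6.40% of all genes tested that fell and 9.36% that rose. Of rises, edgeR gave 0 at an unadjusted p under 0.05 as well, and DESeq2 gave 0 at an adjusted p under 0.05. Summed, the 33 genes took 0.176% to 0.182% of all counts in the control libraries, 0.0979% to 0.129% in those of shMPZL3 #1 and 0.134% to 0.151% in those of shMPZL3 #2, and these ranges do not overlap.

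The median log2 fold change of the 33 genes was -0.45 in the grouped comparison, and that of all genes tested was 0.02. It was -0.63 with shMPZL3 #1 and -0.33 with shMPZL3 #2, against 0.01 and 0.00 for all genes. All 6 knockdown libraries lay below all 3 control libraries for 19 of the 33 genes, and for 11.0% of all genes tested. The count of 15 rested on each control library: it was 4, 5 and 6 without scr control replicate 1, 2 and 3, and 9 without shMPZL3 #1 replicate 1. CENPI, NUF2, SKA3 and CENPF were called whichever library was left out, and the other 11 calls were lost without scr control replicate 1. Those of CENPA, CENPN, CENPQ, CENPW, NDC80, SPC25, KNL1, SKA1 and CENPE were also lost without scr control replicate 2 or 3. The count was 24 when the fit of 3 groups gave the mean of both shRNAs. In that fit the difference between the shRNAs does not add to the spread of any gene. The share of all genes that it called was not computed, and the 6.40% above belongs to the main fit.

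With shMPZL3 #1 alone, 24 of the 33 genes fell and 0 rose (0 also at an unadjusted p under 0.05 and with DESeq2), against 15.3% of all genes tested that fell and 16.8% that rose. With shMPZL3 #2, 10 fell and 1 rose, against 5.80% and 9.36%. The 9 genes that fell with both shRNAs were CENPI, NDC80, NUF2, KNL1, SKA2, SKA3, CENPE, CENPF and MAD2L1, where both comparisons share the control libraries. A further 15 fell with shMPZL3 #1 alone and NSL1 with shMPZL3 #2 alone. Another 8 fell with neither (CENPC, CENPL, CENPP, CENPT, CENPX, MIS12, DSN1 and SPC24). The shares of all genes tested that fell with both, either alone or neither were not computed. The library of shMPZL3 #1 replicate 3 held the lowest value of 26 of the 33 genes, and without it 19 fell with shMPZL3 #1, 13 with shMPZL3 #2 and 13 in the grouped comparison. With shMPZL3 #2 the count was 5, 6 and 6 without scr control replicate 1, 2 and 3, 6 without shMPZL3 #2 replicate 1, 16 without its replicate 2 and 4 without its replicate 3.

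**Figure D1:**
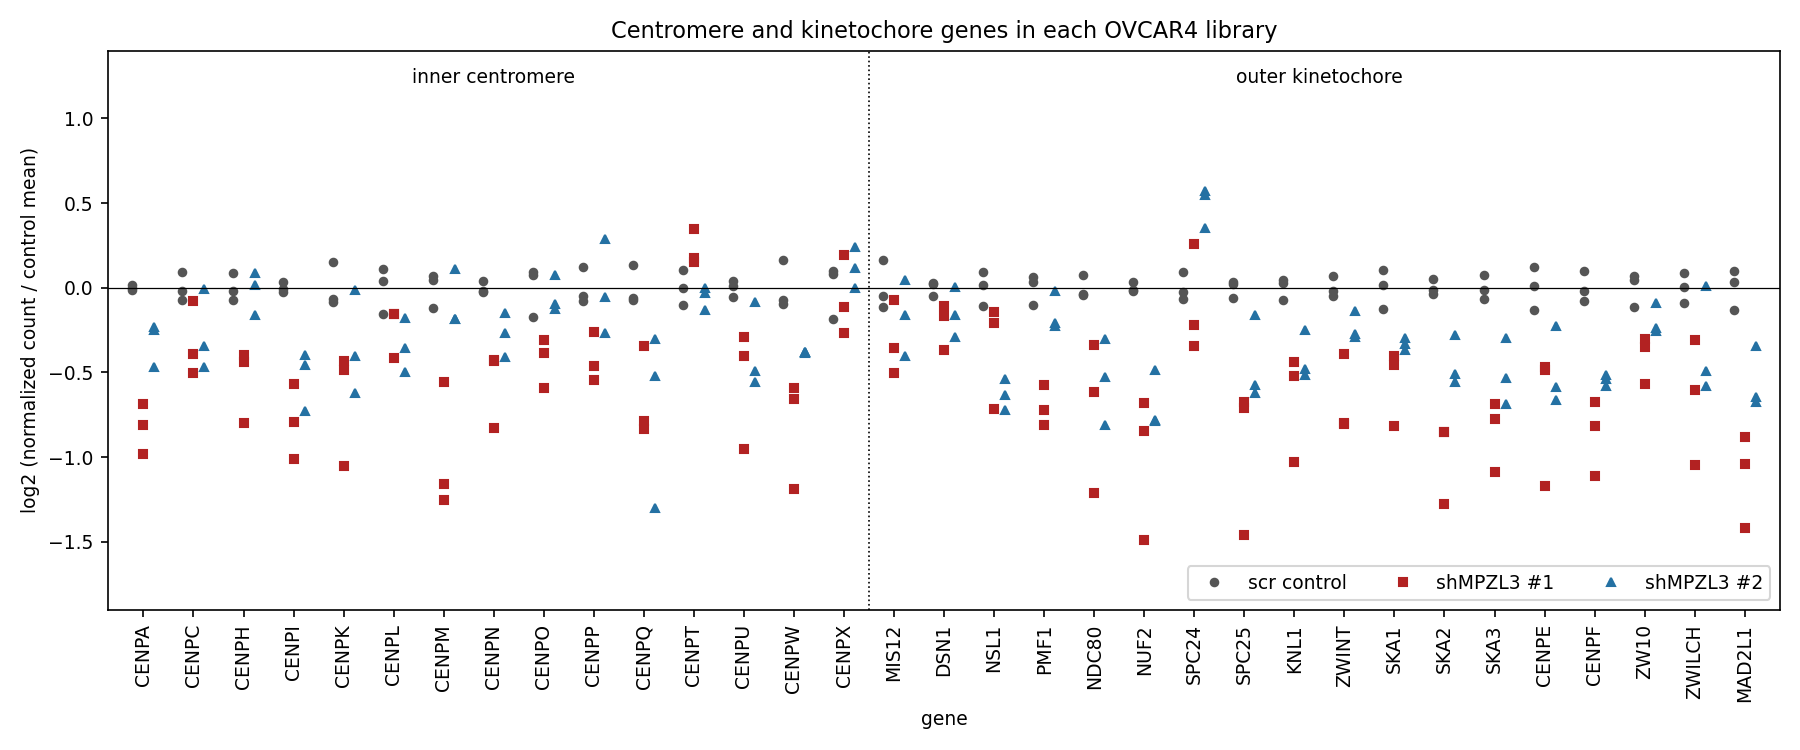
Each point is 1 library, with the log2 ratio of its normalized count to the mean of the 3 scr control libraries on the y axis and the 33 genes on the x axis, inner centromere on the left and outer kinetochore on the right. Most red squares (shMPZL3 #1) lie below 0, blue triangles (shMPZL3 #2) lie between them and the gray control points, and the blue triangles of SPC24 lie above 0.

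Levels per length, in CPM per kilobase of exon (mean ± SD, n = 3 libraries), were compared in scr control. They ranged from 62.2 ± 6.61 for CENPX and 61.7 ± 6.28 for CENPW, both small histone-fold proteins of the CCAN, to 0.509 ± 0.0384 for CENPP. The intervals of CENPX and CENPW overlap, and ZWINT followed with 45.4 ± 1.92. SPC25 had 27.2 ± 0.989 and its partner SPC24 13.4 ± 0.768, which is the widest gap within the NDC80 complex, where NDC80 had 22.3 ± 1.05 and NUF2 18.7 ± 0.409. CENPT, at 4.84 ± 0.340, lay far under its partner CENPW. In all, 14 of the 33 genes share exon bases with another gene, 3 of them at least 20% of their own. The value of CENPP is uncertain, because 38.0% of its exon bases are shared with IPPK on the opposite strand and the library type does not keep the strand. The same holds for CENPO, which shares 27.0% of its exon bases with ADCY3, while PMF1 shares 23.3% with the read-through gene PMF1-BGLAP on its own strand.

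**Figure D2:**
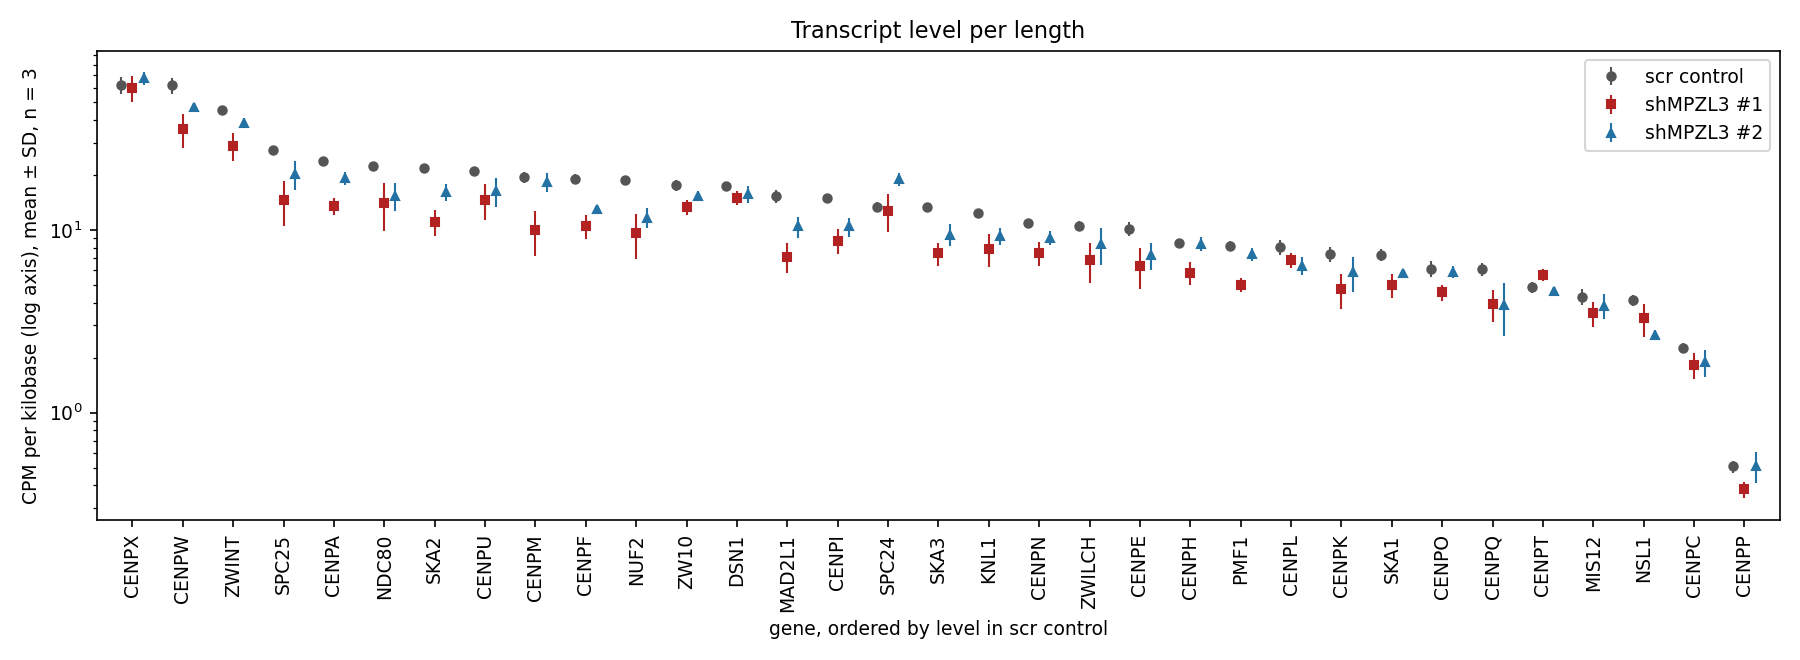
Mean level of each of the 33 genes in CPM per kilobase (log axis) in the 3 groups, with bars of ± 1 SD over 3 libraries, ordered by the level in scr control. Levels run from 62.2 for CENPX to 0.509 for CENPP, and most red squares lie under the gray points.

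Among the inner centromere genes 5 of 15 fell in the grouped comparison, 10 with shMPZL3 #1 and 1, CENPI, with shMPZL3 #2. Of all genes tested, 6.40%, 15.3% and 5.80% fell, so the inner count with shMPZL3 #2 was near that share. CENPA (ENSG00000115163, chromosome 2, 26764289 to 26801067, plus strand of GRCh38), the histone that marks the centromere, had 959, 967 and 982 normalized counts in the scr control libraries, 603, 553 and 489.9 with shMPZL3 #1 and 817, 702 and 824 with shMPZL3 #2. The 3 groups did not overlap, and shMPZL3 #1 gave the lowest values. The grouped change of CENPA was a log2 fold change of -0.54 ± 0.15, adjusted p = 0.0298, and it passed with shMPZL3 #1 (-0.82 ± 0.11, adjusted p = 5.74e-05) but not with shMPZL3 #2 (-0.31 ± 0.11, adjusted p = 0.0672). The grouped call of CENPA was lost without any 1 of the 3 control libraries or without shMPZL3 #1 replicate 1 (adjusted p up to 0.110).

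CENPC binds the CENPA nucleosome and reaches to the MIS12 complex, and its grouped change of -0.29 ± 0.14 did not pass (adjusted p = 0.167). The genes CENPH, CENPI, CENPK and CENPM encode a subcomplex of the CCAN. CENPI (ENSG00000102384, chromosome X, 101098218 to 101163681, plus strand) had 1304, 1323 and 1359.7 normalized counts in scr control, 897, 768 and 658 with shMPZL3 #1 and 802, 969.8 and 1009 with shMPZL3 #2. All 6 knockdown libraries lay below the control libraries. CENPI fell in the grouped comparison (log2 fold change of -0.64 ± 0.12, adjusted p = 0.00507), and this call held in all 16 alternatives. CENPM (ENSG00000100162, chromosome 22, 41938721 to 41947164, minus strand) had 652, 742 and 730.0 normalized counts in scr control, 479.7, 316 and 296 with shMPZL3 #1 and 763, 623 and 622 with shMPZL3 #2. Only the shMPZL3 #1 libraries lay apart from the controls, with log2 fold change of -0.96 ± 0.16, adjusted p = 0.000302. CENPH and CENPK fell with shMPZL3 #1 as well (-0.54 and -0.63), and with shMPZL3 #2 their log2 fold changes were -0.01 ± 0.14 and -0.33 ± 0.17, neither past the threshold.

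CENPL and CENPN together bind the CENPA nucleosome. CENPN fell in the grouped comparison (log2 fold change of -0.40 ± 0.13, adjusted p = 0.0466). This call was lost without any 1 library of scr control or shMPZL3 #1 and without shMPZL3 #2 replicate 3. It was also lost with a minimum of 10 counts in every library. CENPL did not pass in any of the 3 comparisons with control (grouped -0.29 ± 0.11, adjusted p = 0.0884). CENPO, CENPP, CENPQ and CENPU belong to a further CCAN subcomplex. CENPQ (ENSG00000031691, chromosome 6, 49463378 to 49493107, plus strand) had 238, 208 and 206 normalized counts in scr control, 122, 171 and 126 with shMPZL3 #1 and 88.1, 175 and 151 with shMPZL3 #2. Every knockdown library lay below the controls, but the knockdown libraries of each shRNA were spread widely. The grouped change of CENPQ was a log2 fold change of -0.64 ± 0.20, adjusted p = 0.0439, and 8 of 16 alternatives kept the call (adjusted p 0.0164 to 0.182), which was lost without any 1 control library, without shMPZL3 #1 replicate 1 or 3 and without shMPZL3 #2 replicate 3, and also with upper-quartile scaling or a minimum of 10 counts in every library (adjusted p = 0.0501 and 0.0509). CENPO and CENPU fell with shMPZL3 #1 (-0.43 and -0.52). CENPP did not pass, with 97.1, 111 and 99.0 normalized counts in scr control, 74.2, 85.5 and 70.0 with shMPZL3 #1 and 85.0, 125 and 98.5 with shMPZL3 #2.

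CENPT, CENPW and CENPX are histone-fold proteins that form a nucleosome-like particle, and CENPT also holds NDC80. CENPW (ENSG00000203760, chromosome 6, 126340174 to 126348875, plus strand) had 1125, 955 and 940.4 normalized counts in scr control, 666, 638 and 439.8 with shMPZL3 #1 and 769, 771 and 772 with shMPZL3 #2, with no overlap between the groups. It fell in the grouped comparison (log2 fold change of -0.57 ± 0.15, adjusted p = 0.0257), a call that was lost without any 1 of the control libraries or without shMPZL3 #1 replicate 1 (adjusted p up to 0.143). CENPT (ENSG00000102901, chromosome 16, 67828157 to 67847811, minus strand) had 513, 590.5 and 549 normalized counts in scr control, 700.3, 622 and 612 with shMPZL3 #1 and 549.7, 539 and 502 with shMPZL3 #2. The shMPZL3 #1 libraries lay above all others, yet the change did not pass (log2 fold change of 0.23 ± 0.11, adjusted p = 0.142). CENPX (ENSG00000169689, chromosome 17, 82018702 to 82024107, minus strand) had 1717, 2063 and 2088 normalized counts in scr control, 2227, 1618 and 1799 with shMPZL3 #1 and 2298, 1947 and 2115 with shMPZL3 #2, and the groups overlapped. Its grouped log2 fold change of 0.03 ± 0.12 was near 0 and changed sign, to -0.06 without scr control replicate 1 and to -0.02 without shMPZL3 #2 replicate 1. CENPT shares exon bases with TSNAXIP1, THAP11 and NUTF2 on the opposite strand (596, 380 and 110 bases), so part of its counts may belong to them.

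In the outer kinetochore 10 of 18 genes fell in the grouped comparison, 14 with shMPZL3 #1 and 9 with shMPZL3 #2. The shares over all genes tested were 6.40%, 15.3% and 5.80%. The MIS12 complex, which bridges the CCAN and the microtubule-binding complexes, had the median nearest to 0 among the outer complexes, a grouped log2 fold change of -0.31, with 0 of 4 subunits past the threshold. DSN1 (ENSG00000149636, chromosome 20, 36751791 to 36773818, minus strand), a subunit that helps bind CENPC, had 996, 944 and 991 normalized counts in scr control, 869.6, 906 and 758 with shMPZL3 #1 and 799.7, 981 and 873 with shMPZL3 #2. The shMPZL3 #1 libraries of DSN1 lay below the controls and the shMPZL3 #2 libraries overlapped them, with a grouped change of -0.18 ± 0.10 (adjusted p = 0.244). PMF1 (ENSG00000160783, chromosome 1, 156212993 to 156240042, plus strand) had 432, 392 and 441 normalized counts in scr control, 283, 255 and 240.2 with shMPZL3 #1 and 416, 360.1 and 365 with shMPZL3 #2. PMF1 fell with shMPZL3 #1 (log2 fold change of -0.70 ± 0.13, adjusted p = 0.000745) and did not pass with shMPZL3 #2 (adjusted p = 0.483). NSL1 fell with shMPZL3 #2 (log2 fold change of -0.63 ± 0.16, adjusted p = 0.0135) and did not pass with shMPZL3 #1 (adjusted p = 0.118). NSL1 had 369.6, 323 and 351 normalized counts in scr control, 300.2, 315 and 211 with shMPZL3 #1 and 211, 224 and 239 with shMPZL3 #2, so both shRNAs gave lower values than any control. The gene MIS12 itself did not pass in any comparison (grouped -0.23 ± 0.15).

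The NDC80 complex is a rod with NDC80 and NUF2 at the end that binds the microtubule and SPC24 and SPC25 at the end that binds the MIS12 complex. NUF2 (ENSG00000143228, chromosome 1, 163266576 to 163355764, plus strand) had 1269.8, 1321 and 1276 normalized counts in scr control, 719, 805 and 459 with shMPZL3 #1 and 748, 921 and 749 with shMPZL3 #2. All 6 knockdown libraries lay well below the controls, and NUF2 fell in the grouped comparison (log2 fold change of -0.81 ± 0.16, adjusted p = 0.00507), a call that held in all 16 alternatives. NDC80 fell too, with a grouped log2 fold change of -0.60 ± 0.16, adjusted p = 0.0235. SPC25 (ENSG00000152253, chromosome 2, 168834132 to 168913371, minus strand) had 987, 1055 and 1046 normalized counts in scr control, 645, 629 and 374 with shMPZL3 #1 and 670.2, 919 and 691 with shMPZL3 #2, and its grouped change was -0.65 ± 0.19 (adjusted p = 0.0338).

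SPC24 (ENSG00000161888, chromosome 19, 11131520 to 11155808, minus strand), is the partner of SPC25. It had 747, 833 and 767 normalized counts in scr control, 936, 617 and 672 with shMPZL3 #1 and 1160.1, 999 and 1144 with shMPZL3 #2. The shMPZL3 #1 libraries lay on both sides of the controls, and the shMPZL3 #2 libraries lay above all of them. SPC24 rose with shMPZL3 #2 (log2 fold change of 0.49 ± 0.14, adjusted p = 0.0216), the only member that rose in any comparison with control, and showed no called change with shMPZL3 #1 (log2 fold change of -0.08 ± 0.14, adjusted p = 0.704). The call with shMPZL3 #2 held in 11 of 15 alternatives (adjusted p 0.00165 to 0.100) and was lost without scr control replicate 1 or 3 and without shMPZL3 #2 replicate 1 or 3.

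KNL1 is the scaffold to which checkpoint kinases bind, and ZWINT binds KNL1. KNL1 had 2459, 2671 and 2638 normalized counts in scr control, 1907, 1805 and 1268 with shMPZL3 #1 and 1853, 2179 and 1811 with shMPZL3 #2, with all knockdown libraries below the controls and a grouped change of -0.52 ± 0.13 (adjusted p = 0.0198). ZWINT fell with shMPZL3 #1 (-0.65 ± 0.11, adjusted p = 0.000398) and did not pass with shMPZL3 #2 (-0.23 ± 0.11). The SKA complex, which keeps the kinetochore on shrinking microtubule ends, fell in all 3 subunits in the grouped comparison, with a median of -0.66. SKA2 (ENSG00000182628, chromosome 17, 59109951 to 59155269, minus strand) had 1464, 1397 and 1378 normalized counts in scr control, 782, 783 and 584 with shMPZL3 #1 and 992, 1166 and 961 with shMPZL3 #2, with no overlap among the groups and a grouped log2 fold change of -0.69 ± 0.16, adjusted p = 0.0149. This call did not hold with scr control replicate 1 or 2 left out (adjusted p = 0.0794 and 0.0580). SKA3 and SKA1 had grouped changes of -0.66 ± 0.14 (adjusted p = 0.00860) and -0.44 ± 0.13 (adjusted p = 0.0374). SKA1 did not pass in the fit without a filter.

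Of the 5 genes of the corona and checkpoint, 3 fell in the grouped comparison and all 5 with shMPZL3 #1. MAD2L1 (ENSG00000164109, chromosome 4, 120055608 to 120067074, minus strand), which binds CDC20 to hold back anaphase, had 1929, 1845 and 1644 normalized counts in scr control, 979, 875 and 673 with shMPZL3 #1 and 1129.8, 1419 and 1151 with shMPZL3 #2. The 3 groups did not overlap. Its fall with shMPZL3 #1 was the lowest value of any member in the 3 comparisons with control (log2 fold change of -1.10 ± 0.13, adjusted p = 2.19e-05), and it fell with shMPZL3 #2 as well (-0.55 ± 0.13, adjusted p = 0.00881). The grouped call of MAD2L1 (-0.80 ± 0.17, adjusted p = 0.00963) did not hold when scr control replicate 1 was left out (adjusted p = 0.0615). CENPF (ENSG00000117724, chromosome 1, 214603195 to 214664588, plus strand), a large corona protein and the most counted of the 33 genes, had 4324, 4901 and 4504 normalized counts in scr control, 2868, 2592 and 2118 with shMPZL3 #1 and 3197, 3147 and 3054 with shMPZL3 #2. No library of CENPF overlapped another group, and the grouped fall held in all 16 alternatives (log2 fold change of -0.69 ± 0.12, adjusted p = 0.00321). CENPE, the kinesin that moves chromosomes to the spindle equator, also fell (log2 fold change of -0.58 ± 0.15, adjusted p = 0.0245). ZW10 and ZWILCH, which with KNTC1 form the complex that brings dynein to kinetochores, fell with shMPZL3 #1 (-0.41 and -0.62) and did not pass in the grouped comparison (adjusted p = 0.0748 and 0.0738).

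Exact permutation tests on the log2 CPM of single genes, two-sided, cannot give less than 0.0119 for 6 against 3 libraries or 0.1 for 3 against 3. Of the 33 genes, 6 reached 0.0119 in the grouped comparison (CENPI, NUF2, KNL1, SKA1, SKA3 and CENPF). The share of all genes tested that reach it was not computed, so this count has no background to be read against.

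**Figure D3:**
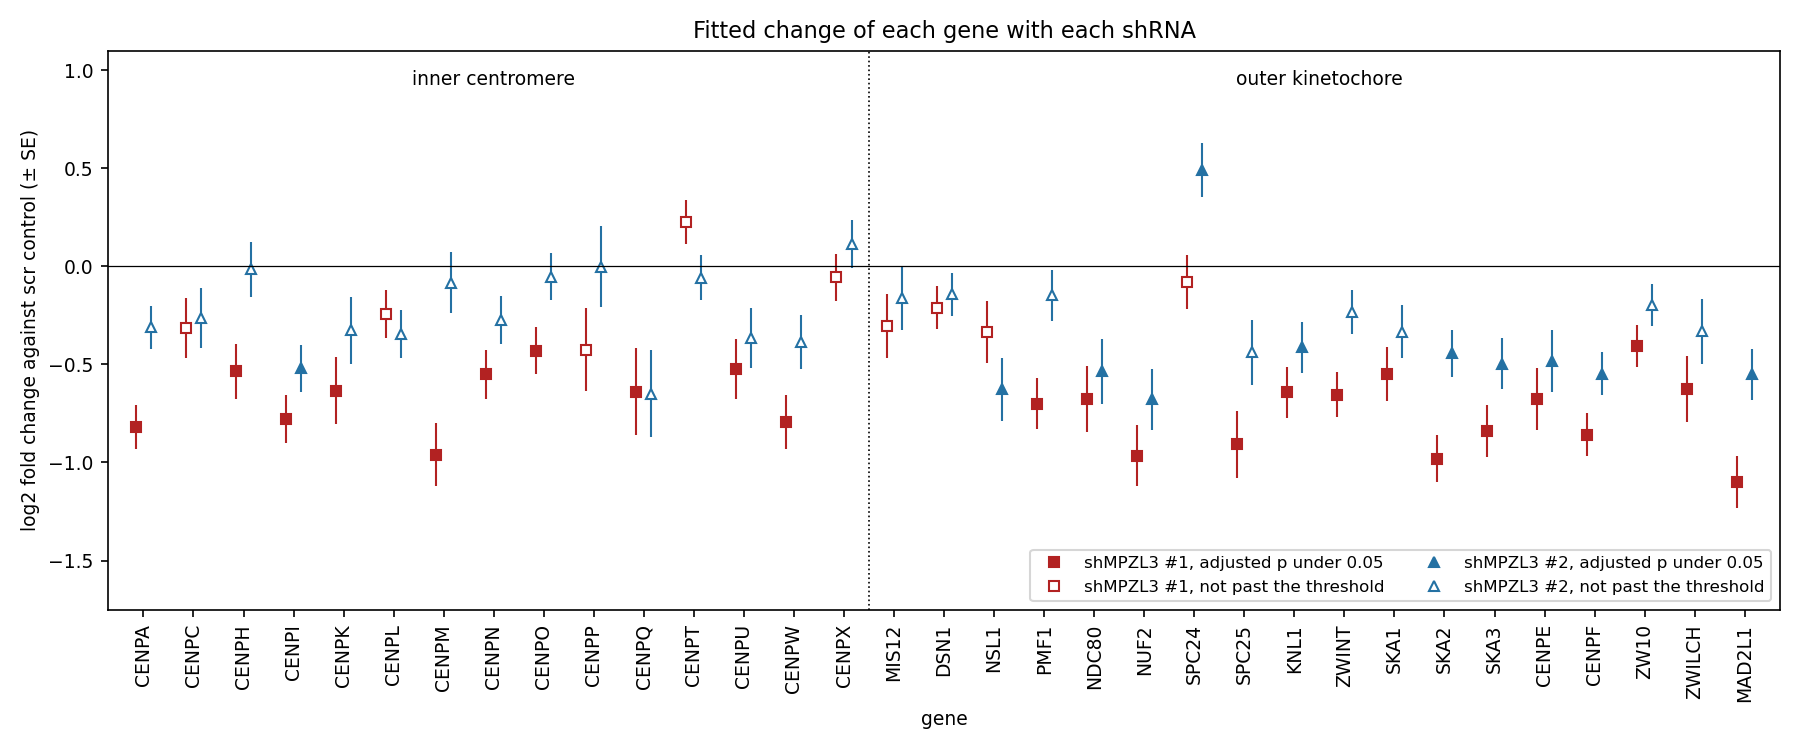
Fitted log2 fold change against scr control for each of the 33 genes, with bars of ± 1 SE, red squares for shMPZL3 #1 and blue triangles for shMPZL3 #2, filled where the adjusted p was under 0.05. Filled blue triangles below 0 number 1 in the inner centromere (CENPI) and 9 in the outer kinetochore.

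Set side by side, the inner centromere genes had a median grouped log2 fold change of -0.40 and the outer kinetochore genes of -0.50, a difference of 0.09 with an SD of 0.0764 between replicates of a group. With shMPZL3 #1 the medians were -0.54 and -0.67, a difference of 0.13 (SD 0.116), and with shMPZL3 #2 they were -0.27 and -0.43, a difference of 0.15 (SD 0.0477). Within single libraries, the median of the inner minus that of the outer genes (log2 ratio to the control mean) was 0.04, -0.01 and -0.05 in scr control. It was 0.03, 0.23 and 0.24 with shMPZL3 #1 and 0.23, 0.14 and 0.19 with shMPZL3 #2. All 3 shMPZL3 #2 libraries and 2 of 3 shMPZL3 #1 libraries thus lay above the controls, and shMPZL3 #1 replicate 1 lay among them. The grouped difference ranged from 0.09 to 0.19 when single libraries were left out, the latter without shMPZL3 #1 replicate 2. The difference with shMPZL3 #1 was 0.06 without shMPZL3 #1 replicate 3, 0.09 without scr control replicate 2 and 0.19 without shMPZL3 #1 replicate 1. These medians were not tested, since genes are not replicates.

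Counts of calls depended on the tool, and shares over all genes tested were computed for the main fits only. With shMPZL3 #2, 1 of 15 inner and 9 of 18 outer genes fell, but DESeq2 gave 5 and 9, the fit without a filter gave 4 and 10, and the fit without shMPZL3 #2 replicate 2 gave 5 and 11. With shMPZL3 #1, 10 of 15 and 14 of 18 fell, and without shMPZL3 #1 replicate 3 the counts were 6 and 13. All 6 knockdown libraries lay below the controls for 7 of 15 inner and 12 of 18 outer genes, and for 11.0% of all genes tested. Within each layer the genes spread from -0.64 (CENPQ) to 0.09 (CENPT) and from -0.81 (NUF2) to 0.24 (SPC24) in the grouped comparison, and these ranges overlap.

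The direct comparison of the shRNAs showed 9 of 33 genes higher with shMPZL3 #2 than with shMPZL3 #1 and 0 lower, against 7.56% of all genes tested in each direction. DESeq2 gave 12 higher and 0 lower, and 1 (CENPT) was lower by edgeR at an unadjusted p under 0.05. In all, 29 of 33 differences were above 0, with a median of 0.29 against 0.01 for all genes. CENPM had the largest difference, 0.88 ± 0.16 (adjusted p = 0.00153), followed by SPC24 (0.57 ± 0.14, adjusted p = 0.00938), PMF1 (0.55 ± 0.13, adjusted p = 0.00938) and MAD2L1 (0.55 ± 0.13, adjusted p = 0.0102). The difference of CENPM, SPC24 and MAD2L1 held in all 15 alternatives, and that of PMF1 in 14. The other 5 were SKA2, CENPH, CENPA, ZWINT and CENPO, between 0.38 and 0.54. The inner centromere held 4 of the 9 and the outer kinetochore 5, and the medians of the layers were 0.28 and 0.29. MPZL3 was itself higher with shMPZL3 #2 than with shMPZL3 #1, by 1.28 ± 0.16 (SE), and the part of this in the differences was not tested.

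Products of several of these genes work in fixed pairs, so the ratio of partner transcripts was taken within each library, on counts per length. The 10 pairs were chosen after the values were seen, and no test was made. The ratio of SPC24 to SPC25 was 0.491, 0.512 and 0.475 in scr control, 0.940, 0.636 and 1.17 with shMPZL3 #1 and 1.12, 0.705 and 1.07 with shMPZL3 #2. All 6 knockdown libraries had a higher ratio than any control library. For CENPT to CENPW the ratio was 0.0655, 0.0887 and 0.0837 in scr control, 0.151, 0.140 and 0.200 with shMPZL3 #1 and 0.102, 0.100 and 0.0934 with shMPZL3 #2, again higher in every knockdown library. These were 2 of 10 pairs in which both shRNAs stood apart from control. In 4 of 10 neither did, among them NDC80 to NUF2, with 1.18, 1.13 and 1.27 in scr control, 1.70, 1.25 and 1.45 with shMPZL3 #1 and 1.43, 1.35 and 1.17 with shMPZL3 #2. CENPL to CENPN and MIS12 to PMF1 lay above control with shMPZL3 #1 alone, and CENPH to CENPK and DSN1 to NSL1 with shMPZL3 #2 alone. Among single genes such separation was common. With shMPZL3 #1, all 3 libraries lay below all controls for 3863 of 16928 genes tested and above them for 4047. With shMPZL3 #2 these numbers were 2984 and 3165. No share was computed over other pairs of genes.

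**Figure D4:**
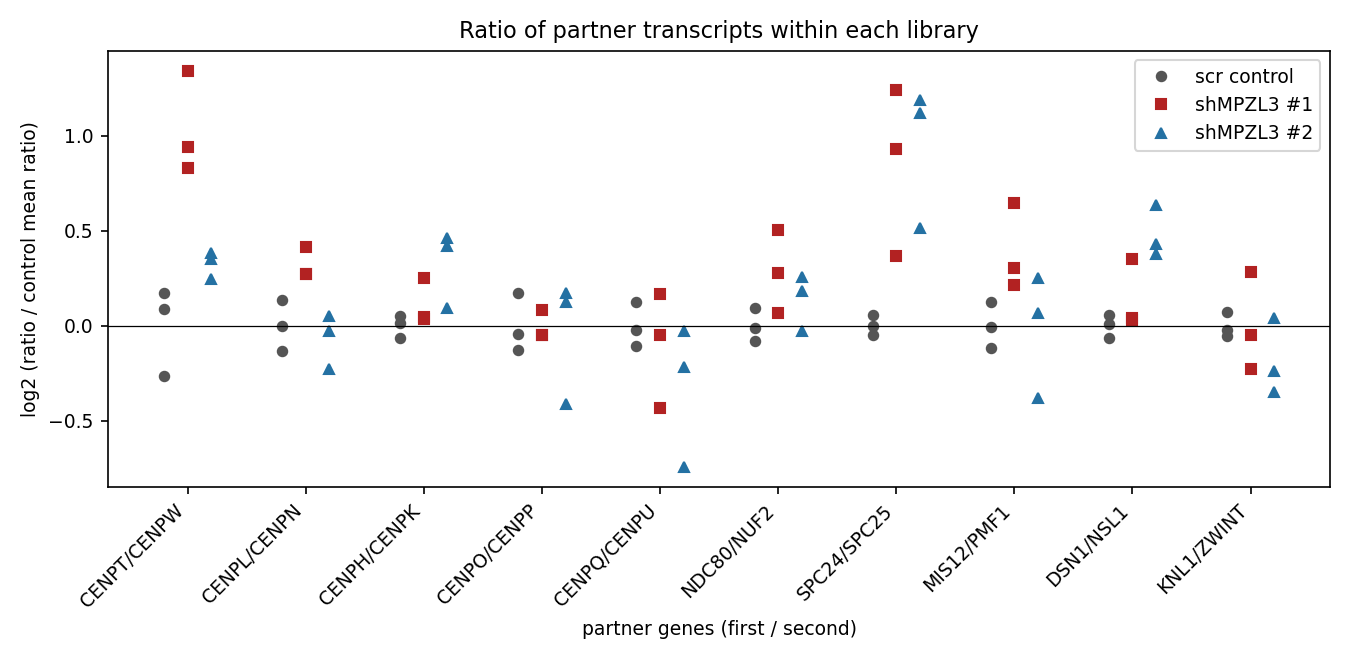
Ratio of partner transcripts within each library, as log2 of the ratio over the mean control ratio, for 10 pairs of genes whose products bind each other. The red and blue points of CENPT/CENPW and SPC24/SPC25 lie above every gray control point.

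The promoter windows of the pairs were printed above, and 29 of the 33 genes had such a window (CENPH, CENPL, CENPM and KNL1 had none). A CHR match lay in 14 of 29 (48.3%), against 19.5% of all 27305 genes with a window and 17.5% of the 15842 protein-coding ones. A CCAAT box lay in 19 (65.5%), against 39.7% and 42.1%, and an E2F match in 10 (34.5%), against 10.2% and 13.8%. By layer, CHR matches lay in 5 of 12 inner (41.7%) and 9 of 17 outer genes (52.9%). With shMPZL3 #1, 13 of the 14 genes with a CHR match fell, and 8 of the 15 without it. Of the genes tested, 1725 with and 9553 without a CHR match had a window and a name found once. Of these, 20.9% and 16.8% fell with shMPZL3 #1. The shares of tested genes that follow are over these same genes. In the grouped comparison the counts were 10 of 14 and 4 of 15, against 10.8% and 6.55% of tested genes with a window. With shMPZL3 #2 they were 5 of 14 and 4 of 15, against 8.99% and 6.07%. The CHR shares with shMPZL3 #2 were close (35.7% and 26.7%). The E2F shares had the same order as those of CHR with shMPZL3 #1 and in the grouped comparison, and the opposite order with shMPZL3 #2. Of genes with and without a CCAAT box, 14 of 19 and 7 of 10 fell with shMPZL3 #1. The shares of tested genes with a window were 19.7% and 15.8%. In the grouped comparison the counts were 8 of 19 and 6 of 10 (8.41% and 6.31%). With shMPZL3 #2 they were 3 of 19 and 6 of 10 (7.28% and 5.96%). Of genes with and without an E2F match, 9 of 10 and 12 of 19 fell with shMPZL3 #1 (23.7% and 16.3%), 6 of 10 and 8 of 19 in the grouped comparison (9.56% and 6.74%) and 1 of 10 and 8 of 19 with shMPZL3 #2 (7.56% and 6.31%). These shares are a description, and the part of the motifs in the falls was not tested. Motifs outside the window were not searched.

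Genes that work with the kinetochore showed the same direction. Of 25 further genes of CENPA loading, checkpoint signalling, the chromosomal passenger complex and cohesion protection, 11 fell in the grouped comparison, 21 with shMPZL3 #1 and 7 with shMPZL3 #2, and 0 rose in any of the 3. Of all genes tested, 6.40%, 15.3% and 5.80% fell in these comparisons and 9.36%, 16.8% and 9.36% rose. The medians of the 25 genes were -0.49, -0.62 and -0.29. The 4 with the largest grouped change were SPDL1, an adaptor for dynein (log2 fold change of -0.96 ± 0.15, adjusted p = 0.00154), and the checkpoint kinases TTK (log2 fold change of -0.81 ± 0.16, adjusted p = 0.00511), BUB1B (-0.65, adjusted p = 0.0249) and BUB1 (-0.62, adjusted p = 0.0167). SPDL1 had 3884, 3789 and 3828 normalized counts in scr control, 2245, 1960.3 and 1334 with shMPZL3 #1 and 2069, 2485 and 1714 with shMPZL3 #2, below the controls in every knockdown library. CENPB, which binds a DNA motif in centromeric repeats, had a grouped change of 0.10 ± 0.12 that did not pass (adjusted p = 0.594).

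A list of 10 proliferation markers moved with these genes: 7 fell in the grouped comparison, 9 with shMPZL3 #1 and 4 with shMPZL3 #2, with medians of -0.52, -0.69 and -0.35. The shares of all genes tested that fell were 6.40%, 15.3% and 5.80%. The median of the 10 markers in single libraries (log2 ratio to the control mean) ranged from -0.03 to 0.02 in scr control, from -1.02 to -0.49 with shMPZL3 #1 and from -0.39 to -0.24 with shMPZL3 #2. The median of the 33 centromere and kinetochore genes ranged from -0.02 to 0.02, from -0.83 to -0.43 and from -0.40 to -0.18 in the same libraries. In both lists shMPZL3 #1 replicate 3 was the lowest library and shMPZL3 #2 replicate 2 the highest of the knockdown libraries. The part of proliferation in the result was not tested.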

How the data were processed

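RNA-seq counts of 9 OVCAR4 libraries were used, 3 per group, grouped by their labels. The authors prepared poly-A selected libraries without strand information. Per the labels' processing notes the submitters used HISAT2 2.0.5, featureCounts 1.5.0-p3 and hg38. The deposited values are raw counts per gene, not normalized or pooled. All 58735 genes matched GENCODE release 29 in identifier and position. The libraries of the other cell line were not used here.

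The tools were R 4.3.3 with edgeR 4.0.16 (main tests), DESeq2 1.42.0 (an alternative) and limma 3.58.1. After filterByExpr and TMM scaling, edgeR's quasi-likelihood test (two-sided) compared all 6 knockdown libraries with the 3 of scr control (the grouped comparison) and, in a fit of 3 groups, each shRNA with control and the shRNAs with each other. Benjamini-Hochberg adjustment covered the 16928 genes tested, with calls at an adjusted p under 0.05. For normalized counts, each library was scaled to the average effective size. Log2 CPM used a prior count of 2, and levels per length are CPM over kilobases of exon. Tests were checked on simulated counts. Total counts were 15040102 to 27835841 per library and each of the 33 genes had 72 to 5196 counts. The share of counting error in the spread between replicates was not computed for single genes.

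The members, the lists and the rule for named genes were chosen with earlier results of these data known. Named in full, in each layer, were the 4 members with the lowest and the 2 with the highest grouped change, the 4 largest differences between shRNAs, the highest and lowest level, and 4 further pathway genes with the largest change. SPC25, NSL1, KNL1, NDC80 and CENPN were added after their values were seen. Alternatives were DESeq2, RLE and upper-quartile scaling, no filter, at least 10 counts in every library, a replicate block, the mean of both shRNAs, and leaving out each library. Promoter sequences are from RefSeq (GRCh38.p14). A result on 1 overlapping gene is not reported here.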

Additional observations from a re-analysis of the deposited data

Results flagged for a closer look

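The effects of the shRNAs on 9 members differed in the direct test of shMPZL3 #2 against shMPZL3 #1, all in the direction of a higher level with shMPZL3 #2. In log2 units, shMPZL3 #2 minus shMPZL3 #1, the inner centromere genes differed by 0.88 (CENPM), 0.52 (CENPH), 0.51 (CENPA) and 0.38 (CENPO). The outer kinetochore genes differed by 0.57 (SPC24), 0.55 (PMF1), 0.55 (MAD2L1), 0.54 (SKA2) and 0.42 (ZWINT). CENPA, SKA2, ZWINT and MAD2L1 were lower than every control library in all 6 knockdown libraries, whereas the shMPZL3 #2 libraries of CENPH, CENPM, CENPO and PMF1 overlapped the controls. For SPC24 the shMPZL3 #2 libraries lay above the controls and those of shMPZL3 #1 on both sides of them. MPZL3 was also lower with shMPZL3 #1, and its part in these differences was not tested.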

How the results depend on the processing

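The number of members that fell was 15 in the grouped comparison and 24 with the mean of both shRNAs in the fit of 3 groups, and with single libraries left out it ranged from 4 to 20. With shMPZL3 #2 it was 10, 17 with the replicate block, and 4 to 16 with single libraries left out. With shMPZL3 #1 it was 24 and stayed within 19 to 25. The grouped difference of the inner and outer medians ranged from 0.09 to 0.19 with single libraries left out (0.0921 to 0.1887). The grouped change of CENPX, not called, changed sign, with a range of -0.0599 to 0.0871. RLE and upper-quartile scaling gave 15 and 14 grouped calls, and no scaling turned the direction of a named member. The share of all genes that was called was not computed for any alternative. The causes were not tested.

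The labels do not say that a replicate number marks a shared batch, and the correlations of the deviations of same-numbered samples ran from -0.0014 to 0.2184, not all above 0.1, so the samples were not treated as paired. As a hint from the data, 5 of 9 libraries correlated best with their own number in both other groups. With the replicate block the counts were 16 grouped, 24 with shMPZL3 #1, 17 with shMPZL3 #2 (6 inner and 11 outer) and 13 higher with shMPZL3 #2 than with shMPZL3 #1. In the grouped comparison the block lost SKA1 and gained CENPU and ZWILCH. Reads in exons shared with other genes could not be assigned without strand information.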
